A study of Mus musculus with 31 samples.

Results

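The genes described here are 9 transcription factors of the liver, Hnf4a, Foxa2, Foxa3, Cebpa, Nr1i2, Nr1i3, Nr1h4, Ppara and Rxra, chosen by name from the 31172 gene symbols measured. They were quantified in the livers of 31 hFIX-R29X mice, each sequenced separately. All of these mice lack mouse F9, and their transgene is a minigene of human FIX that holds the nonsense mutation R29X and is driven by the human transthyretin promoter, which is active in hepatocytes. They were 8 to 14 weeks old, received 6 subcutaneous injections, 1 every 5 days, and were killed 48 h after the last. The vehicle DPBS went to 6 females and 5 males. Control-GalNAc-ASO went to 2 females and 2 males at a dose of 15 mg/kg and to 3 of each sex at 20 mg/kg. Upf3b-GalNAc-ASO went to 2 females and 3 males at 10 mg/kg and to as many at 20 mg/kg. An ASO is an antisense oligonucleotide, here one that directs cleavage of the complementary RNA, and the sugar GalNAc carries it into hepatocytes through the asialoglycoprotein receptor. UPF3B is a factor of nonsense-mediated mRNA decay (NMD), the pathway that degrades transcripts with premature stop codons. The comparisons asked whether the levels of these factors differed after depletion of Upf3b, after the control ASO alone, and between the sexes.

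Hepatocytes keep their identity through a small network of factors that bind each other's genes. HNF4A is a nuclear receptor that holds genes of lipid transport, clotting and gluconeogenesis active, FOXA2 and FOXA3 are forkhead proteins that open chromatin ahead of other factors, and C/EBPα, encoded by Cebpa, is a leucine zipper protein that drives genes of metabolic maturity. The remaining members sense small molecules: PXR (Nr1i2) and CAR (Nr1i3) respond to drugs and other foreign compounds by raising oxidising and conjugating enzymes and transporters, FXR (Nr1h4) responds to bile acids, and PPARα (Ppara) responds to fatty acids and raises their oxidation. RXRα, encoded by Rxra, is the partner with which these 4 bind DNA.

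Both oligonucleotides have 16 bases, with 3 modified bases in each wing and a deoxy gap of 10 bases. They are shown because treatment with them defines the groups. The gap, which directs the cleavage, is in capitals.
Upf3b-ASO: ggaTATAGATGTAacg
Control ASO: ggcCAATACGCCGtca
The target of the Upf3b-ASO lies in the 3′ UTR of exon 10 of Upf3b, at chrX:37091973-37091988 of GRCm38, minus strand. The stretches nearest to it in the annotated transcripts of Nr1i3, Foxa2 and Rxra, the members described most fully here, are given beneath it, with each base that differs from the target in capitals.
Upf3b: cgttacatctatatcc
Nr1i3: cCttCcaCctCtaCcc
Foxa2: TgttaAatTtTAaAcc
Rxra: GgAtGcatctatTtTc
No transcript of a member came closer to the Upf3b-ASO target than 5 mismatches. Cebpa, Nr1i3, Nr1h4, Ppara and Rxra had such a stretch and the others had 6 mismatches at best, while 30.5% of the 55341 gene names searched had a stretch with at most 5. For the control ASO, Foxa3, Nr1i2 and Nr1i3 had 5 mismatches and the other members 6. Introns were not searched.

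Values are in TPM, transcripts scaled to a fixed total per library. Most nonzero values were whole multiples of 1 step per mouse, where 4% would be by chance. The share was 49.4% to 61.3% for genes with transcripts under 1000 bases and 67.2% to 80.2% for those over 4000 bases. Because the same step served short and long transcripts, the values were taken as scaled reads not divided by length. Levels are compared here between mice and not between genes. The steps gave 1020669 to 7391587 reads per mouse, with a median of 3627931, and 3 reads, the least taken as a detectable level, corresponded to 0.406 to 2.94 TPM. These reads are derived from the values. The average depth stated in the paper is far higher, and the reason for the gap was not worked out. All 12 hepatocyte markers examined were above 0 in every group, with summed levels of 22345 to 49999 TPM, whereas the 6 lymphocyte markers summed to 1.43 to 42.1 TPM. Upf3b itself was 97.3 ± 33.2 TPM (SD, n = 11) with DPBS, 57.8 ± 22.1 (SD, n = 4) and 111 ± 21.8 (SD, n = 6) with control ASO at 15 and 20 mg/kg, and 21.5 ± 20.0 (SD, n = 5) and 7.80 ± 5.82 (SD, n = 5) with Upf3b-ASO at 10 and 20 mg/kg. Replicate 3 of the 10 mg/kg group stood apart: at 53.7 TPM its Upf3b lay within the range of the mice given control ASO at 15 mg/kg, it had the fewest reads of all 31 mice, and its median correlation with the mice of its own group was the lowest (0.716). Results of the members at 10 mg/kg are therefore also given without it, as are those of the related lists where its absence changed a call or moved a named value by over 1.5 times.

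Of the 9 members, 8 were detected in every mouse and Foxa3 was listed at 0 in all 31. Foxa3, annotated on GRCm38 at chr7:19013284-19023538 with 1 transcript, was among 12384 symbols at 0 in every mouse. Because genes used by every cell were also at 0 in many mice, Hprt in 21 and Rpl13a in 25, the value says only how the gene is listed, and Foxa3 enters no comparison. Between 19 and 5436 reads stood behind each value of the other 8 members.

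Spread between mice differed among the members. Ppara was the most variable, with a coefficient of variation of 79.4% over the 31 mice and a range of 7.42 to 222 TPM, followed by Foxa2 at 59.3% and a range of 3.65 to 156 TPM. Nr1i3 had a coefficient of variation of 50.7% and ranged from 20.7 to 162 TPM. Cebpa ranged from 214 to 884 TPM with a coefficient of variation of 40.6%, and Nr1i2, Hnf4a, Rxra and Nr1h4 lay between 28.5% and 31.4%. When the 5 groups were ordered by their mean for each of the 8 members, the ranges of neighbouring groups overlapped in all 32 of 32 pairs. The order differed between members: the Upf3b-ASO groups were the lowest pair for Hnf4a, Nr1i3 and Nr1h4, while for Cebpa and Nr1i2 the 20 mg/kg Upf3b-ASO group had the highest mean.

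**Figure D1:**
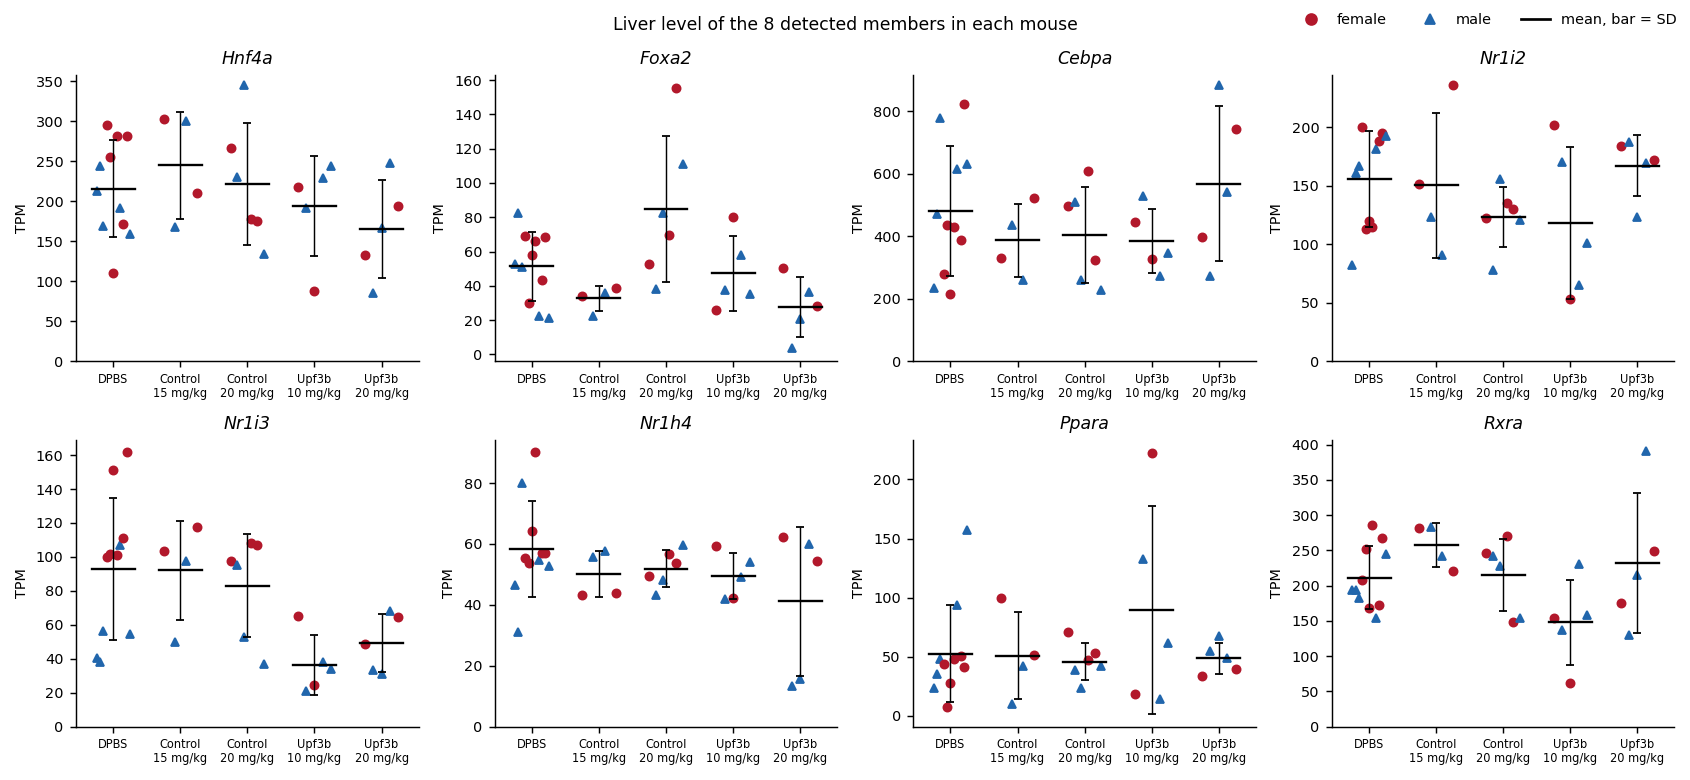
Liver level in TPM (vertical axes, linear) of the 8 detected members in each of the 31 mice, by treatment group (horizontal axes). Red circles are females, blue triangles males, black lines the group means and vertical bars the SD. Nr1i3 sits between 20.7 and 68.4 TPM in the 10 mice given Upf3b-ASO, below most but not all mice of the other groups, whose lowest value is 36.9 TPM. The groups overlap for every member.

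In the main fits Nr1i3, which encodes CAR, was the only member called after Upf3b-ASO, and only with both doses together. That comparison was chosen after the values were seen. At single doses against control ASO, the lowest adjusted p of a member was that of Foxa2 at 20 mg/kg (limma, adjusted p = 0.0687). With Upf3b-ASO at 10 mg/kg the 5 mice had 65.3, 20.7, 24.2, 37.8 and 33.9 TPM, and the 4 mice given control ASO at 15 mg/kg had 103.5, 49.9, 97.3 and 117 TPM. With Upf3b-ASO at 20 mg/kg the 5 mice had 48.6, 33.5, 30.9, 68.4 and 64.8 TPM, against a lowest value of 36.9, a median of 96.2 and a highest of 108 TPM in the 6 mice given control ASO at 20 mg/kg. The 11 DPBS-treated mice ranged from 37.9 to 162 TPM with a median of 101 TPM. The Upf3b-ASO groups thus lay in the lower part of the range, and each overlapped its control group. At 10 mg/kg the overlap was between a treated female and a control male, and within each sex the groups did not overlap, as in that direction for 5.75% of 9166 genes. Both treated females and treated males overlapped control males at 20 mg/kg.

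Over both doses, Nr1i3 separated the treatments in females. The 4 females given Upf3b-ASO had 24.2 to 65.3 TPM of Nr1i3, below every one of the 11 other females, whose lowest value was 97.3 TPM. Over all 9797 genes tested in these groups, 0.949% were likewise lower in every Upf3b-ASO female than in every other female. In males, the 6 mice given Upf3b-ASO had 20.7 to 68.4 TPM and the 10 others 36.9 to 107 TPM. Of these 6 males, 4 were below all 10 others and 5 were below their median of 53.7 TPM. Whether the change differed between the sexes was not tested.

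**Figure D2:**
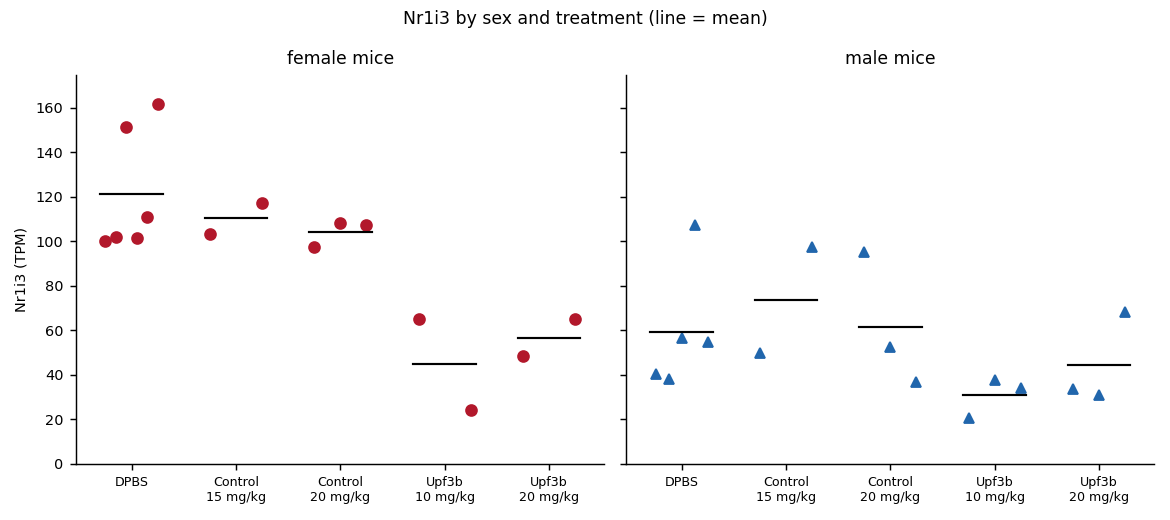
Nr1i3 in TPM (vertical axis, from 0) in females (left) and males (right) of the 5 groups, 1 point per mouse, with a line at each mean. The 4 Upf3b-ASO females, at 24.2 to 65.3 TPM, are apart from the 11 other females, at 97.3 TPM and above, while males of the treatments overlap.

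At 10 mg/kg Nr1i3 averaged 36.4 ± 17.6 TPM (SD, n = 5) after Upf3b-ASO, and 92.0 ± 29.3 TPM (SD, n = 4) after control ASO. With sex as a covariate, limma on log2(TPM + 1) gave a log2 fold change of -1.31 (SE 0.38, adjusted p = 0.146), so Nr1i3 was not called at an adjusted p under 0.05. The thresholds used in the study are 2-fold or more and an unadjusted p no higher than 0.01. In limma Nr1i3 passed them (limma, unadjusted p = 0.00398), as did 4.81% of the 9166 genes tested. The study's own p came from a negative binomial model for each replicate. That test was not repeated here, so these thresholds are applied to limma values throughout. An exact permutation test of the mice, two-sided and blind to sex, gave p = 0.0238, where the smallest possible was 0.00794. Without replicate 3 of the Upf3b-ASO group the log2 fold change was -1.04 (limma, adjusted p = 0.140), and without replicate 1 it was -1.53 and called (limma, adjusted p = 0.0329). Leaving out each mouse in turn gave adjusted p of 0.0329 to 0.390 in limma.

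At 20 mg/kg Nr1i3 averaged 49.2 ± 17.3 TPM (SD, n = 5) after Upf3b-ASO, and 82.9 ± 30.4 TPM (SD, n = 6) after control ASO. The log2 fold change was -0.64 (SE 0.31, limma, adjusted p = 0.277), with a 95% interval of -1.30 to 0.01. The changes at the 2 doses differed by 0.65 on the log2 scale (SE 0.49, limma, adjusted p = 0.729), and the 95% interval of that difference ran from -0.34 to 1.65. Without replicate 3 the difference was 0.43 (limma, adjusted p = 0.900).

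Because both dose comparisons gave negative values for Nr1i3, the average of the 2 changes was fitted over all 20 ASO-treated mice, a comparison chosen after those values were seen. Nr1i3 averaged 42.8 ± 17.8 TPM (SD, n = 10) after Upf3b-ASO, and 86.6 ± 28.7 TPM (SD, n = 10) after control ASO. Its log2 fold change was -0.98 (SE 0.24, limma, adjusted p = 0.0161), a ratio of 0.509 on the TPM + 1 scale, just short of the study's 2-fold threshold. It was the only member of the 8 tested that was called, where 6.27% of 9797 genes were called, 2.57% higher and 3.7% lower. Without replicate 3 of the 10 mg/kg group the value was -0.85 (limma, adjusted p = 0.0221), and without replicate 3 of the control ASO group at 15 mg/kg it was -0.89 and no longer called (limma, adjusted p = 0.0538).

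Nr1i3 lies on chromosome 1 at 171213970 to 171220701, plus strand (GRCm38). GENCODE M21 gives it 8 transcripts, of which 4 are protein coding and 1 is annotated as a target of NMD, and the values do not separate them. Its exons share 3304 bases with exons of Tomm40l on the opposite strand. The study let Salmon detect the library type automatically, and the type detected is not given in the sources used here. Reads of the 2 genes may therefore not be told apart. Tomm40l was listed at 0 to 12.98 TPM over the 31 mice. The sum of both genes was 41.2 ± 14.5 TPM (SD, n = 5) with Upf3b-ASO at 10 mg/kg, of which Tomm40l made up 11.8%, against 93.2 ± 27.1 TPM (SD, n = 4) with control ASO at 15 mg/kg. The sums at 20 mg/kg were 50.1 ± 16.3 TPM (SD, n = 5) and 84.6 ± 28.7 TPM (SD, n = 6).

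**Figure D3:**
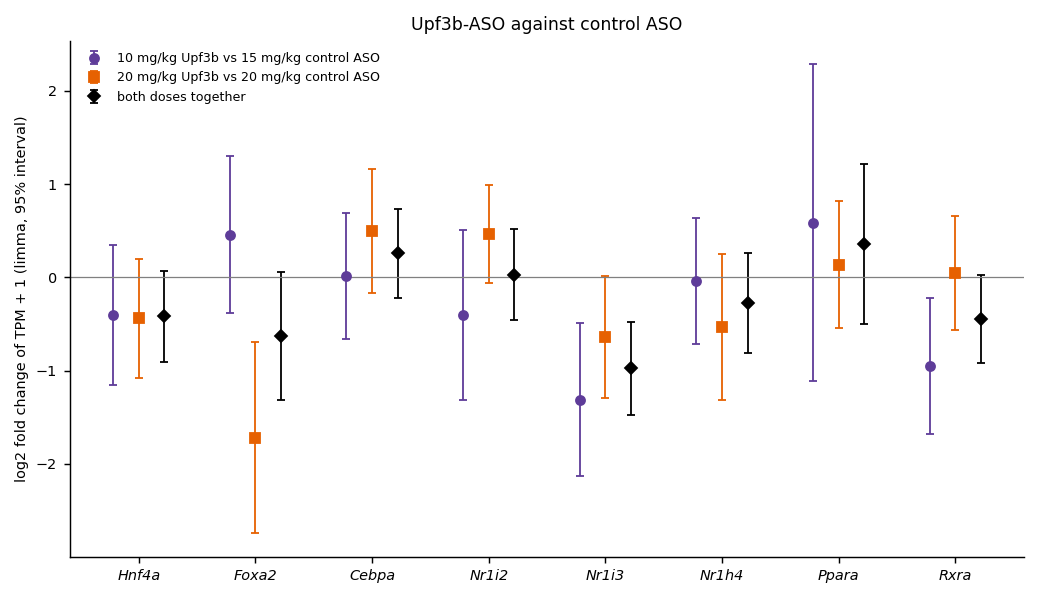
Log2 fold changes of TPM + 1 (vertical axis) with 95% intervals from limma for the 8 detected members, with Upf3b-ASO at 10 mg/kg (purple circles), at 20 mg/kg (orange squares) and at both doses together (black diamonds), each against control ASO. The interval of Nr1i3 at both doses together lies below 0, from -1.48 to -0.48.

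Foxa2, the forkhead factor at chr2:148042877-148046969 on the minus strand, had its largest difference at 20 mg/kg. The 5 mice given Upf3b-ASO at that dose had 50.3, 3.65, 20.7, 36.1 and 28.1 TPM, and the 6 given control ASO had a lowest value of 37.9, a median of 75.9 and a highest of 156 TPM. The groups overlapped in 1 mouse each, replicate 1 with Upf3b-ASO at 50.3 TPM and replicate 2 with control ASO at 37.9 TPM. The log2 fold change was -1.72 (SE 0.49, 95% interval -2.74 to -0.70, limma, adjusted p = 0.0687), which was not called, although it passed the study's thresholds (limma, unadjusted p = 0.00236), as did 6.23% of 9376 genes. Within each sex the groups did not overlap, as in that direction for 3.43% of genes. The exact two-sided permutation test gave p = 0.00866, where the smallest possible was 0.00216. Leaving out each mouse in turn gave -1.98 to -1.22, with adjusted p of 0.0437 to 0.181 in limma. The value nearest 0 was that without replicate 2 of the Upf3b-ASO group, at 3.65 TPM, and only without replicate 5 of that group was Foxa2 called (-1.97, limma, adjusted p = 0.0437).

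The control group at 20 mg/kg was itself high for Foxa2, at 84.8 ± 42.8 TPM (SD, n = 6) against 51.3 ± 20.1 TPM (SD, n = 11) with DPBS, a log2 fold change of 0.70 (SE 0.31, limma, adjusted p = 0.478). Against DPBS, which served as the control for 4 of the comparisons, Foxa2 with Upf3b-ASO at 20 mg/kg changed by -1.01 (SE 0.42, limma, adjusted p = 0.306), and by -0.52 without replicate 2 (limma, adjusted p = 0.565). The log2 fold change of Foxa2 at 10 mg/kg against control ASO was 0.46 (SE 0.39, limma, adjusted p = 0.584), with values of 26.0 to 80.3 TPM against 22.2 to 38.8 TPM. The highest was that of replicate 3, without which the change was 0.20 (limma, adjusted p = 0.823). The changes at 20 and 10 mg/kg differed by -2.23 (SE 0.67), and this was not called (limma, adjusted p = 0.423, unadjusted p = 0.00239). Without replicate 3 it was -2.07 (limma, adjusted p = 0.6255). For this difference between doses 0 members and 0% of 9797 genes were called in limma, while 2 members (Foxa2 and Rxra) and 8.16% of genes had an unadjusted p under 0.05.

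Rxra, the shared partner of the small-molecule receptors, was low in 4 of the 5 mice at 10 mg/kg. These mice had 153, 137, 61.7, 231 and 158 TPM, against 282, 284, 243 and 220 TPM in the 4 mice given control ASO at 15 mg/kg. Only replicate 4, at 231 TPM, reached the control range, and within each sex the groups did not overlap, which in that direction was so for 5.75% of 9166 genes. The log2 fold change was -0.95 (SE 0.34, limma, adjusted p = 0.217), and -0.64 without replicate 3 (limma, adjusted p = 0.226). Rxra at 20 mg/kg averaged 232 ± 99.1 TPM (SD, n = 5) after Upf3b-ASO, and 215 ± 50.8 TPM (SD, n = 6) after control ASO, with a log2 fold change of 0.05 (SE 0.29, limma, adjusted p = 0.945). The difference between the 2 doses was 0.95 (SE 0.46, limma, adjusted p = 0.601), and 0.67 without replicate 3 (limma, adjusted p = 0.825).

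The other factors of hepatocyte identity, Hnf4a and Cebpa, did not pass the test. Hnf4a, at chr2:163506808-163572910, averaged 194 ± 62.4 TPM (SD, n = 5) with Upf3b-ASO at 10 mg/kg, and 245 ± 66.9 TPM (SD, n = 4) with its control ASO. With Upf3b-ASO at 20 mg/kg it averaged 165 ± 61.2 TPM (SD, n = 5), and 221 ± 76.3 TPM (SD, n = 6) with its control ASO. Its log2 fold changes of -0.40 (SE 0.35) and -0.44 (SE 0.31) had the same sign, and the average over both doses was -0.42 with a 95% interval of -0.90 to 0.07 (limma, adjusted p = 0.303), or -0.27 without replicate 3 (limma, adjusted p = 0.481). Without replicate 3 the value at 10 mg/kg was -0.09, that mouse having 88.2 TPM. Cebpa, at chr7:35119293-35121928, had log2 fold changes of 0.02 (SE 0.31), or 0.12 without replicate 3, and 0.50 (SE 0.32), and the mice given Upf3b-ASO at 20 mg/kg ranged from 272 to 884 TPM, those given control ASO from 229 to 609 TPM. Of its exon bases, 51 are shared with Gm45091 on the opposite strand.

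Nr1i2, encoding PXR, at chr16:38248323-38294824, changed by -0.41 (SE 0.43, limma, adjusted p = 0.658) at 10 mg/kg, where values were 52.9 to 201 TPM with Upf3b-ASO and 90.7 to 236 TPM with control ASO. Without replicate 3 this was 0.02. It changed by 0.47 (SE 0.25, limma, adjusted p = 0.335) at 20 mg/kg, with 123 to 188 TPM against 77.7 to 155 TPM. The exact two-sided permutation test gave p = 0.0238 for Nr1i2 at 20 mg/kg, 1 of 16 such tests of the 8 members at the 2 doses and not adjusted for their number. The values of CAR and PXR had opposite signs at 20 mg/kg, and the same sign at 10 mg/kg only with replicate 3 included. None of these values was called in limma.

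Nr1h4, the bile acid receptor gene at chr10:89454234-89533585, had 2 low mice in the 20 mg/kg Upf3b-ASO group. Its 5 values there were 62.4, 13.4, 15.7, 60.1 and 54.4 TPM, and the 6 control mice ranged from 43.2 to 59.7 TPM. Replicates 2 and 4, both male, were thus below every other mouse of the study, whose lowest value was 30.99 TPM, and the other 3 were at the level of the controls. Replicate 2 also had the largest share of its total in its 50 highest genes of all 31 mice (38.3%, where the median was 29.7%). It was the lowest of all mice for Foxa2 (3.65 TPM) and Hnf4a (85.8 TPM) as well. The group's log2 fold change was -0.53 (SE 0.38, limma, adjusted p = 0.473), and at 10 mg/kg it was -0.04 (SE 0.32, limma, adjusted p = 0.970), or 0.01 without replicate 3. Ppara, at chr15:85734983-85802819, had values of 14.5 to 222 TPM with Upf3b-ASO at 10 mg/kg against 10.5 to 99.8 TPM with control ASO. Its log2 fold change of 0.59 had an SE of 0.78 (limma, adjusted p = 0.739). Replicate 3 had the highest value, and without it the change was 0.09 (SE 0.94, limma, adjusted p = 0.976), while leaving out each mouse in turn gave 0.02 to 1.34. For Ppara at 20 mg/kg the change was 0.13 (SE 0.33, limma, adjusted p = 0.863).

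At the stricter threshold, then, 0 of the 8 members tested were called at 10 mg/kg, where 0.295% of 9166 genes were called, and 0 at 20 mg/kg, where 2.52% of 9376 genes were. Upf3b, the target of the ASO, was likewise not called at 10 mg/kg against control ASO (-1.73, SE 0.61, limma, adjusted p = 0.211). Against DPBS it was called at that dose (-2.57, SE 0.45, limma, adjusted p = 0.00455). At 20 mg/kg it was called against control ASO (-3.87, SE 0.40, limma, adjusted p = 1.59e-05). A missing call at 10 mg/kg thus does not show an unchanged level. At an unadjusted p under 0.05 in limma, 2 members (Nr1i3 and Rxra) passed at 10 mg/kg, where 15.8% of genes did, and 1 (Foxa2) at 20 mg/kg, where 18.7% did. The median log2 fold change of the 8 was -0.22 at 10 mg/kg and -0.19 at 20 mg/kg, beside -0.03 and -0.12 over all genes tested. Without replicate 3 the median of the 8 at 10 mg/kg was 0.01. In bulk liver, fewer cells of a type and less RNA per cell cannot be told apart. The summed level of the 12 hepatocyte markers was 22345 to 42716 TPM with Upf3b-ASO at 10 mg/kg and 34089 to 42561 TPM with control ASO at 15 mg/kg, where 1 of the 12 was called (Tat, lower) and 11 of 12 values were negative, and 27212 to 42946 against 26877 to 42470 TPM at 20 mg/kg, where 1 of the 12 was called (Hpx, higher) and 10 of 12 values were negative. The 9 endothelial markers, none at 0 in all mice, summed to 1561 to 2303 TPM with Upf3b-ASO at 20 mg/kg and 704 to 1745 TPM with control ASO, and 1 of the 9 was called (Pecam1, higher). In contrast to the sum, 7 of the 9 endothelial values were negative, with a median log2 fold change of -0.53. Their part in the results was not tested.

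No member was called between the control ASO and DPBS. In limma, 0 members were called at 15 mg/kg and 0 at 20 mg/kg, and over all genes 0% were called in either comparison, while 7.18% and 9.9% of genes, with 0 members and 1 member (Foxa2 at 20 mg/kg), had an unadjusted p under 0.05. Log2 fold changes of the members ran from -0.53 to 0.31 at 15 mg/kg and from -0.31 to 0.70 at 20 mg/kg, Foxa2 being lowest at 15 mg/kg and highest at 20 mg/kg. For Nr1i3 they were 0.11 (95% interval -0.46 to 0.68) and -0.07 (95% interval -0.57 to 0.42).

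With the same DPBS mice as the reference, Nr1i3 changed by -1.17 (SE 0.31, limma, adjusted p = 0.119) with Upf3b-ASO at 10 mg/kg and by -0.70 (SE 0.28, limma, adjusted p = 0.289) at 20 mg/kg. At 10 mg/kg it was lower than DPBS within each sex with no overlap, as were 0.399% of 9032 genes. In males this separation was narrow. The highest treated male had 37.77 TPM and the lowest DPBS male 37.88 TPM, closer than the step of 0.217 TPM in that treated mouse. Members called numbered 0 in both comparisons, where 0.376% and 1.13% of genes were called, and 2 members in each had an unadjusted p under 0.05 (Nr1i3 and Rxra at 10 mg/kg, Nr1i3 and Foxa2 at 20 mg/kg), where 8.27% and 11.9% of genes did. Rxra changed by -0.61 (SE 0.27, limma, adjusted p = 0.570) at 10 mg/kg. Without replicate 3, Rxra changed by -0.28 against DPBS and no longer had an unadjusted p under 0.05 (limma, unadjusted p = 0.238), and Nr1i3 changed by -0.86 (limma, adjusted p = 0.413).

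Among the DPBS-treated mice, Nr1i3 also had the largest difference between the sexes of the members. The 6 females had 100 to 162 TPM with a median of 106 TPM, and the 5 males had 40.2, 37.9, 56.5, 107 and 54.7 TPM. Replicate 8, at 107 TPM, was the only male in the range of the females. The log2 fold change of males against females was -1.10 (SE 0.29, limma, adjusted p = 0.0819), not called, where 1.41% of 8998 genes were and 9.86% had an unadjusted p under 0.05, as Nr1i3 alone did among the members. Leaving out each mouse in turn gave -1.33 to -0.96, with adjusted p of 0.0232 to 0.239 in limma, and only without replicate 8 was it called (-1.33, limma, adjusted p = 0.0232). The control ASO treated mice, which that test did not use, had 107 ± 7.33 TPM (SD, n = 5) in females and 66.4 ± 27.9 TPM (SD, n = 5) in males. The other 7 members differed between the sexes by -0.40 to 0.85 on the log2 scale, Ppara being the highest in males (SE 0.51, limma, adjusted p = 0.599).

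The genes that these factors control, in lists taken from general knowledge, were then examined at each dose. Over all genes tested against control ASO, 0.295% were called at 10 mg/kg and 2.52% at 20 mg/kg. Those with an unadjusted p under 0.05 in limma were 15.8% and 18.7%. Of 20 genes known to be induced through CAR and PXR, 13 could be tested, and 0 were called at 10 mg/kg and 1, Abcc2, at 20 mg/kg, with 9 of 13 values negative at each dose and 1 and 4 genes at an unadjusted p under 0.05 in limma. Abcc2, the canalicular export pump for conjugates, changed by -1.64 (SE 0.42, limma, adjusted p = 0.0477) at 20 mg/kg, with 136 ± 67.8 TPM (SD, n = 5) against 384 ± 133 TPM (SD, n = 6), and by -0.41 (SE 0.38, limma, adjusted p = 0.616) at 10 mg/kg, or -0.80 without replicate 3 (limma, adjusted p = 0.170). The largest values at 10 mg/kg were those of Aldh1a1, a retinal and aldehyde dehydrogenase (-1.24, SE 0.33, limma, adjusted p = 0.104), and Slco1a4, an uptake transporter (-0.91, SE 0.48, limma, adjusted p = 0.372), the latter at -0.51 without replicate 3. Sult1d1, a sulfotransferase, was at -1.34 (SE 0.44, limma, adjusted p = 0.106) at 20 mg/kg. Cyp2b10 and Cyp3a11, the enzymes most used as readouts of CAR and PXR, are named here after their values were seen. Cyp2b10 was 0 to 9.29 TPM in all mice, too low to be tested, and Cyp3a11 changed by 0.22 (SE 0.31, limma, adjusted p = 0.754) at 10 mg/kg, 0.37 without replicate 3, and by 0.18 (SE 0.26, limma, adjusted p = 0.751) at 20 mg/kg.

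Targets of PPARα numbered 20, of which 18 were tested at 10 mg/kg and 19 at 20 mg/kg, and 0 were called at either dose, with 3 and 5 at an unadjusted p under 0.05 in limma. Over all genes, 0.295% and 2.52% were called, and 15.8% and 18.7% had such a p. Acot1, an acyl-CoA thioesterase, had the largest change at both doses. It was 6.95 ± 4.36 TPM (SD, n = 5) with Upf3b-ASO at 10 mg/kg, none above 10.9 TPM, and at least 32.7 TPM in every control mouse (log2 fold change -3.16, SE 0.64, limma, adjusted p = 0.0579). Without replicate 3, Acot1 was at -2.38 and called (SE 0.39, limma, adjusted p = 0.00827), the 1 call in this list. It changed by -1.86 (SE 0.63, limma, adjusted p = 0.128) at 20 mg/kg. Fabp1, the fatty acid carrier of the hepatocyte cytosol, changed by -1.02 (SE 0.30, limma, adjusted p = 0.147) at 10 mg/kg, and Pdk4, which restrains glucose oxidation, by 1.81 (SE 0.82, limma, adjusted p = 0.239) at 20 mg/kg, where its highest mouse had 62.9 TPM and its control mice at most 10.7 TPM. The list's median was -0.26 and -0.07 at the 2 doses, and 0.0054 at 10 mg/kg without replicate 3.

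Of 15 genes controlled by FXR, 11 were tested, with 0 called at 10 mg/kg and 1 at 20 mg/kg, and 2 and 4 at an unadjusted p under 0.05 in limma. The shares of all genes were 0.295% and 2.52% called, and 15.8% and 18.7% at such a p. The call was Slco1b2, a transporter that takes bile acids and drugs up from blood, at 1627 ± 584 TPM (SD, n = 5) against 3320 ± 758 TPM (SD, n = 6) (log2 fold change -1.10, SE 0.27, limma, adjusted p = 0.0326), whereas at 10 mg/kg it changed by 0.07 (SE 0.30, limma, adjusted p = 0.940), or -0.12 without replicate 3. Nr0b2, which encodes the repressor SHP and is the best known gene induced by FXR, was at -2.26 (SE 0.73, limma, adjusted p = 0.178) and -0.56 (SE 0.43, limma, adjusted p = 0.514) at the 2 doses. Klb, the co-receptor for FGF15, was at -2.03 (SE 0.76, limma, adjusted p = 0.229) at 10 mg/kg, and Cyp7a1, the rate-limiting enzyme of bile acid synthesis, at -1.21 (SE 0.69, limma, adjusted p = 0.378) at 20 mg/kg.

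All 18 genes listed for HNF4A, FOXA and C/EBP factors were tested, and 16 of 18 values were negative at 10 mg/kg and 13 of 18 at 20 mg/kg, with medians of -0.51 and -0.30. Against DPBS, 13 of 18 were negative at 10 mg/kg and 15 of 18 at 20 mg/kg, with medians of -0.23 and -0.29. Of these, 0 and 5 had an unadjusted p under 0.05 in limma, where 8.27% and 11.9% of all genes did. The control ASO group at 15 mg/kg was itself higher than DPBS for 14 of 18, with a median of 0.26. Against control ASO at 10 mg/kg, 6 of the 18 had an unadjusted p under 0.05 in limma, where 15.8% of all genes did. The 1 called there, where 0.295% of genes were, was Tat, the enzyme that starts tyrosine breakdown. It was 179 ± 46.8 TPM (SD, n = 5) with Upf3b-ASO, none above 229 TPM, and at least 436 TPM in every control mouse (log2 fold change -1.99, SE 0.34, limma, adjusted p = 0.0237). Without replicate 3, 2 were called, Tat (-1.96, limma, adjusted p = 0.0082) and Pck1, an enzyme of gluconeogenesis (-1.11, limma, adjusted p = 0.0147), the latter named after its value was seen. Tat averaged 736 TPM in that control group and 321 TPM with DPBS. At 20 mg/kg against control ASO, 0 of the 18 were called, where 2.52% of all genes were. An unadjusted p under 0.05 in limma was found for 6 of them and for 18.7% of all genes. Tat changed by -0.82 at that dose (SE 0.36, limma, adjusted p = 0.229). Gys2, the liver glycogen synthase, was at -1.44 (SE 0.44, limma, adjusted p = 0.165) and -1.42 (SE 0.56, limma, adjusted p = 0.185), and Igfbp1, a secreted binding protein for insulin-like growth factors, at 1.58 (SE 1.45, limma, adjusted p = 0.609) at 20 mg/kg, where 1 mouse had 2962 TPM.

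**Figure D4:**
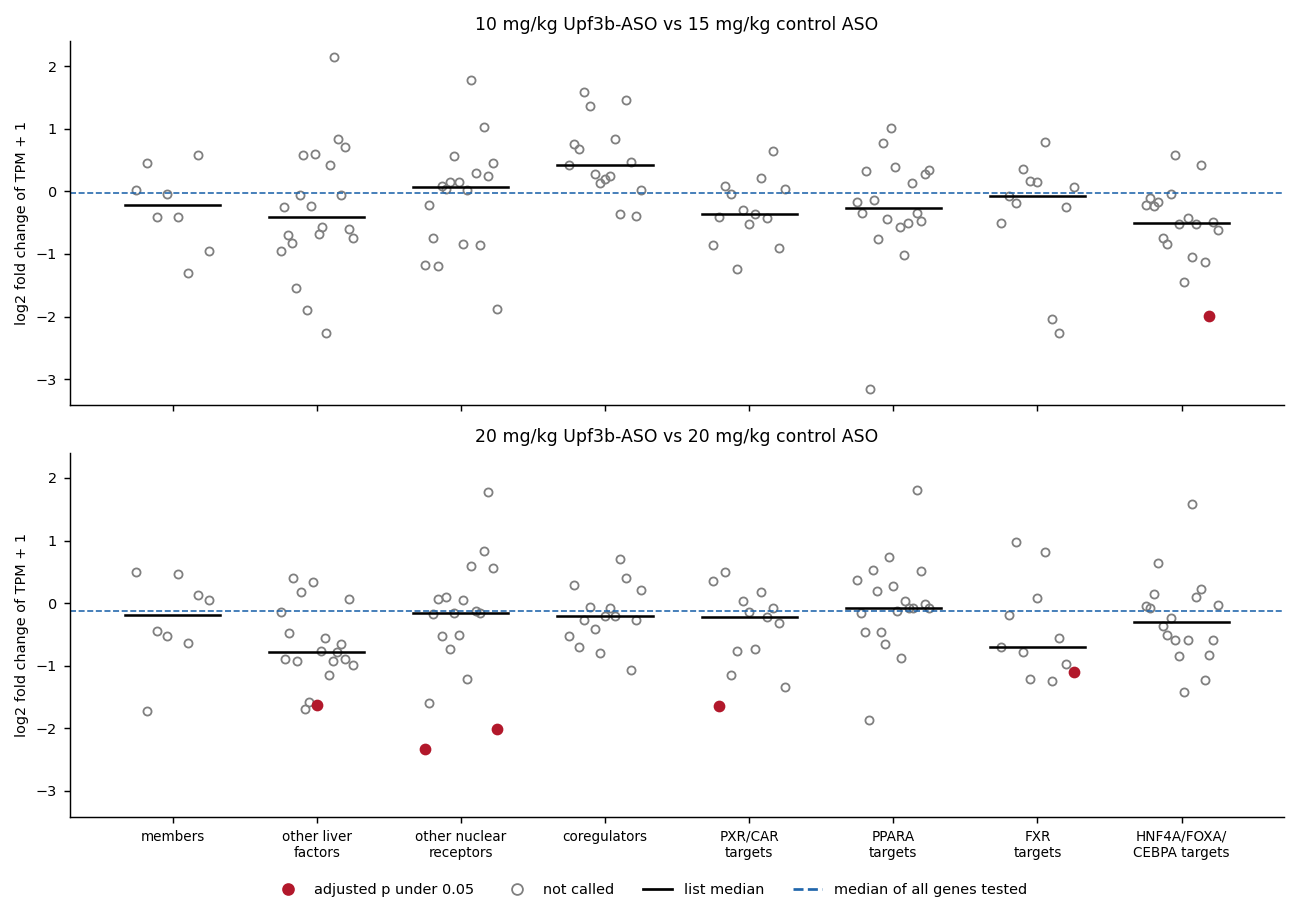
Log2 fold changes of TPM + 1 (vertical axes) of the members and of the genes of 7 related lists (horizontal axis), with Upf3b-ASO at 10 mg/kg (top) and 20 mg/kg (bottom) against control ASO. Each circle is 1 gene, red where the adjusted p was under 0.05, black lines are list medians and the dashed line is the median of all genes tested. The red points, which include Tat (top) and Hlf, Thrb, Abcc2 and Slco1b2 (bottom), are all below 0.

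Among factors related to the members, calls were made only at 20 mg/kg and all were negative, in the 2 comparisons with control ASO. Beside them, 0.295% of all genes were called at 10 mg/kg and 2.52% at 20 mg/kg, and 15.8% and 18.7% had an unadjusted p under 0.05 in limma. Of 23 other liver transcription factors, 20 were tested at 10 mg/kg and 19 at 20 mg/kg, where Hlf, a clock-controlled leucine zipper factor, was called (30.3 ± 18.4 TPM, SD, n = 5, against 93.8 ± 45.7 TPM, SD, n = 6, log2 fold change -1.62, SE 0.36, limma, adjusted p = 0.0204). Dbp, of the same family, was at -1.89 (SE 0.48, limma, adjusted p = 0.0882) at 10 mg/kg and -1.69 (SE 1.196, limma, adjusted p = 0.496) at 20 mg/kg, and Onecut1 at 2.14 (SE 0.92, limma, adjusted p = 0.296) at 10 mg/kg. Of these 20, 0 were called at 10 mg/kg in limma and 4 had an unadjusted p under 0.05. Of 25 other nuclear receptors, 18 were tested at each dose, with 0 called at 10 mg/kg, where 3 had an unadjusted p under 0.05, and 2 called at 20 mg/kg, Thrb among them. Thrb, the thyroid hormone receptor of liver, averaged 5.66 ± 2.55 TPM (SD, n = 5), and 25.0 ± 6.68 TPM (SD, n = 6) after control ASO (log2 fold change -2.01, SE 0.42, limma, adjusted p = 0.0148), and its values of 4.05 to 10.1 TPM did not overlap the controls' 15.96 to 33.1 TPM. Rara was at 1.77 (SE 0.49, limma, adjusted p = 0.122) at 10 mg/kg.

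Of the 15 coactivators, corepressors and chaperones of nuclear receptors, all were tested and 0 were called at either dose, with 4 and 1 at an unadjusted p under 0.05 in limma. Among all genes, 0.295% and 2.52% were called, and 15.8% and 18.7% had such a p. Their median was 0.42 at 10 mg/kg, with 13 of 15 values positive, and -0.21 at 20 mg/kg, with 11 of 15 negative. Without replicate 3, 11 of 15 values were positive at 10 mg/kg, the median was 0.20 and 1 gene was called, the chaperone gene Hsp90ab1 (1.08, limma, adjusted p = 0.0315), named after its value was seen. Hsp90aa1, part of the chaperone that holds receptors ready for ligand, was at 1.58 (SE 0.42, limma, adjusted p = 0.109) and Nrip1, a corepressor, at 1.46 (SE 0.55, limma, adjusted p = 0.227) at 10 mg/kg. Ppargc1a and Ncoa1, both coactivators, were at -1.07 (SE 0.49, limma, adjusted p = 0.240) and -0.79 (SE 0.66, limma, adjusted p = 0.548) at 20 mg/kg.

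Over the 28 pairs of the 8 detected members, Spearman's rho across the 31 mice ran from -0.35 to 0.53 with a median of 0.12, and 16 of 28 were positive. The highest was between Hnf4a and Rxra (0.53) and the lowest between Foxa2 and Cebpa (-0.35). Nr1i3 was nearest to Nr1h4 (0.42) and Rxra (0.37), and Nr1i2 nearest to Cebpa (0.41). These are descriptions: the mice share groups, sexes and differences in depth, all of which enter rho.

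Other genes followed single members more closely, as the best of 8495 compared over the same 31 mice. Nr1i3 was most like Cyp39a1, an oxysterol hydroxylase (rho 0.83), Slc17a4 (0.80) and Hamp2 (0.80). Cebpa was most like Sympk (0.84), Wipi2 (0.79) and Zfp444 (0.78), and Nr1i2 most like Srebf2 (0.80), Itih3 (0.79) and Kif1c (0.78). Rxra was most like Rpl7 (0.78), Ccm2 (0.74) and Plin3 (0.74), Ppara most like Eif3c (0.77), Llph-ps2 (0.74) and Ddx46 (0.71), and Foxa2 most like Sult1b1 (0.73) and Rimbp2 (0.73). Nr1h4 was most like Lfng (0.73), D17Wsu92e (0.68) and Hjurp (0.67), and Hnf4a most like Gm2a (0.67), Hsd17b11 (0.67) and Gm6472 (0.67).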

How the data were processed

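Liver RNA of 31 mice in 5 groups was measured, the groups and sexes being those of the sample labels. The authors quantified reads with Salmon 0.7.2 after bcl2fastq 2.17.1.14, on GRCm38.p4 per the submitters' processing notes, and what they deposited is a TPM table of gene symbols per mouse. The labels name a kit for 3′ ends, the study's methods another kit. Of 31198 symbols, 26 turned into dates were dropped. Between 69.5% and 81.5% of nonzero values were, to within 0.02 of a read, whole multiples of 1 step per mouse, from which reads were derived. Because the remainder were not whole, no count test was used. Floors cover counting error only.

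Genes whose median reached 5 TPM in 1 or more of the compared groups were tested with limma 3.58.1 in R 4.3.3 (trend and robust) on log2(TPM + 1), with sex as covariate, only the mice of the groups compared, and Benjamini-Hochberg adjustment over all genes tested. This scale understates changes of low genes. Exact permutation tests were two-sided, on the mean log2(TPM + 1), in Python 3.11.15. The limma procedure was tested on simulated data. The labels do not tie mice to litters or cages. The members, lists and rules were chosen with earlier results of these data known. Named genes were the members, Upf3b, every list gene called at 10 or 20 mg/kg against control ASO with the 2 largest changes per list and dose, called or not, and the 3 genes most like each member, and 2 genes that this rule names are not reported here. Alternatives were a pseudocount of 0.5, no filter, no sex term, quantile normalization, 1 fit of all groups, eBayes without trend and robust, a replicate block and leaving out each mouse. For ASO groups against DPBS, only ASO-treated mice were left out. Positions and transcripts came from GENCODE M21. Oligonucleotide sequences came from the study's supplement. Upf1-ASO samples were not analysed here.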

Additional observations from a re-analysis of the deposited data

Results flagged for a closer look

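In the 20 mg/kg Upf3b-ASO group, Nr1i2 in replicate 4 was 123 TPM, the lowest of 5, and the nearest other mouse had 169 TPM. The gap was 0.720 of the group's range, past Dixon's limit for 5 samples. This was the only such value in 32 sets of values, those of the 8 members in the 4 groups of 4 to 6 mice,, where about 1 in 20 is flagged by chance.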

How the results depend on the processing

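No member's value changed sign while called, under any alternative for any of the 9 comparisons. Counts of members called moved in these fits: 1 fit of all 5 groups called 1 member (Foxa2, -1.75, limma, adjusted p = 0.0223) at 20 mg/kg against control ASO and 1 (Nr1i3, -1.18, limma, adjusted p = 0.0308) at 10 mg/kg against DPBS, and leaving out each mouse gave 0 to 1 member at 10 and at 20 mg/kg against control ASO, between the sexes and at both doses together. The cause was not tested.

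Values that changed sign were at most 0.41 in size as reported, and adjusted p was 0.809 or higher in each fit with the opposite sign. Under quantile normalization they were Cebpa at 10 mg/kg (-0.0188), Ppara (-0.05027) and Rxra (-0.0107) for control ASO at 20 mg/kg against DPBS, and Hnf4a for the difference between doses (0.0366). Without sex, Cebpa at 10 mg/kg was -0.001151, and in 1 fit of all groups Nr1h4 at 10 mg/kg was 0.00625. Without the mice under 1500000 reads, a choice made after seeing the data, the values were 0.0171 for Nr1i2 and 0.0106 for Nr1h4 at 10 mg/kg, -0.0868 for Hnf4a, -0.12 for Ppara and -0.0079 for Rxra in control ASO at 20 mg/kg against DPBS, 0.0849 for Hnf4a and -0.32 for Ppara in Upf3b-ASO at 10 mg/kg against DPBS, -0.17 for Nr1i2 between the sexes and 0.23 for Ppara between doses. Leaving out each mouse gave, at 10 mg/kg against control ASO, -0.17 to 0.16 for Cebpa, -0.66 to 0.0171 for Nr1i2 and -0.16 to 0.0319 for Nr1h4, and at 20 mg/kg -0.0689 to 0.32 for Ppara and -0.16 to 0.23 for Rxra. In the comparisons of ASO groups with DPBS, only the ASO-treated mice were left out in turn. For control ASO against DPBS this gave, at 15 mg/kg, -0.31 to 0.11 for Nr1i2, -0.12 to 0.22 for Nr1i3 and -0.61 to 0.59 for Ppara, and at 20 mg/kg -0.13 to 0.16 for Hnf4a, -0.24 to 0.0392 for Nr1i3, -0.12 to 0.28 for Ppara and -0.0418 to 0.15 for Rxra. For Upf3b-ASO against DPBS it gave, at 10 mg/kg, -0.28 to 0.13 for Hnf4a, -0.27 to 0.23 for Foxa2 and -0.36 to 0.85 for Ppara, and at 20 mg/kg -0.14 to 0.25 for Rxra. It gave -0.0828 to 0.22 for Nr1i2 between the sexes, -0.32 to 0.18 for Hnf4a and -0.87 to 0.19 for Ppara between doses, and -0.0928 to 0.20 for Nr1i2 at both doses together.

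Residuals of same-numbered mice correlated by -0.18 to 0.36 at 10 mg/kg and -0.26 to 0.10 at 20 mg/kg. At 10 mg/kg 2 of the 4 treated mice with a control of their number correlated best with it, and 1 of 5 at 20 mg/kg. With so few mice, this check cannot decide whether replicate numbers pair them. With the replicate number as a block 0 members were called at either dose, Ppara at 20 mg/kg was -0.0915, and all genes called went from 27 to 95 at 10 mg/kg and from 236 to 45 at 20 mg/kg. The block fit leaves out mice without a partner of their number, and leaving out those mice alone gave 13 and 70 genes. At 10 mg/kg, 17 genes were called with a pseudocount of 0.5, 5 without a filter, 73 after quantile normalization, 16 without trend and robust, 10 without sex and 91 without the mice under 1500000 reads. At 20 mg/kg, 67 were called without a filter, 60 without trend and robust and 143 without those mice, and quantile normalization turned 87 higher and 149 lower into 132 and 135 and the median of all genes from -0.12 to -0.01. A fit of all 5 groups called 62 rather than 34 and 163 rather than 103 against DPBS, and both doses together gave 336 rather than 614 without a filter. Without a filter 2 genes were called rather than 0 for control ASO at 15 mg/kg against DPBS, and 2 rather than 0 without trend and robust for the difference between doses. Leaving out 1 mouse gave, over all genes, 2 (without control ASO replicate 3) to 431 (without Upf3b-ASO replicate 1) genes at 10 mg/kg and 70 (without control ASO replicate 3) to 270 at 20 mg/kg. It gave 305 (without control ASO replicate 2 at 15 mg/kg), 336 (without replicate 1) and 353 (without replicate 3) at both doses together, 56 against DPBS at 20 mg/kg (without Upf3b-ASO replicate 6), up to 2 for control ASO at 20 mg/kg against DPBS and up to 13 between doses (without Upf3b-ASO replicate 1 at 10 mg/kg). Groups of 4 to 6 mice and as few as 19 reads for a member limit the smallest change that can be called.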

Other observations

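In the comparison of both doses of Upf3b-ASO with both doses of control ASO, which was chosen after seeing the data, 11 genes of the related lists were called besides Nr1i3, and all were lower. They were 1 of 20 other liver factors tested, 3 of 19 other nuclear receptors and 0 of 15 coregulators. For targets of CAR and PXR they were 2 of 13, of PPARα 2 of 19 and of FXR 0 of 11. For those of HNF4A, FOXA and C/EBP factors they were 3 of 18. Those given here, 10 of the 11, are named after their values were seen. Among other factors these were Thrb (log2 fold change -1.94, SE 0.32, limma, adjusted p = 0.000357), the clock repressor Nr1d2 (-0.85, SE 0.26, limma, adjusted p = 0.0495) and Xbp1, a factor of the unfolded protein response (-0.86, SE 0.25, limma, adjusted p = 0.0375). Among listed targets they were the CAR and PXR genes Abcc2 (-1.02, SE 0.30, limma, adjusted p = 0.0405) and Aldh1a1 (-0.997, SE 0.29, limma, adjusted p = 0.0403) and the PPARα genes Acot1 (-2.50, SE 0.48, limma, adjusted p = 0.00293) and Fabp1 (-0.94, SE 0.29, limma, adjusted p = 0.0495). The others were Tat (-1.41, SE 0.26, limma, adjusted p = 0.00147), Gys2 (-1.43, SE 0.38, limma, adjusted p = 0.0242) and Pck1, the enzyme that commits to gluconeogenesis (-1.18, SE 0.24, limma, adjusted p = 0.00407). Over all genes, 2.57% were called higher and 3.70% lower. Without replicate 3 of the 10 mg/kg group, Thrb, Abcc2, Acot1, Tat, Gys2 and Pck1 were still called (limma, adjusted p = 0.000492 to 0.0418), while Xbp1 (-0.75, limma, adjusted p = 0.0550), Nr1d2 (-0.66, limma, adjusted p = 0.0833), Aldh1a1 (-0.86, limma, adjusted p = 0.0755) and Fabp1 (-0.81, limma, adjusted p = 0.109) were not. In that fit Hlf (-1.39, limma, adjusted p = 0.0188), Klb (-1.998, limma, adjusted p = 0.0394) and G6pc, the last enzyme of glucose release (-0.94, limma, adjusted p = 0.0418), were called lower as well, and Rxrb, another RXR gene, higher (1.17, limma, adjusted p = 0.0253).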
